A study of Juglans regia with 12 samples.

Results

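In walnut flower buds, 116 of the 31425 genes in the deposited mRNA table met a rule for being strongly higher in a late-flowering type than in an early-flowering one. The members were selected on the counts themselves. A gene's late-flowering mean had to reach 5 CPM (read counts scaled to the same total in every library). Its lowest late-flowering library had to lie above its highest early-flowering library. The log2 ratio of the late-flowering to the early-flowering mean, with 0.5 CPM added to each, had to be at least 2. Members make up 0.369% of the table, and the same rule turned round gave 69 genes higher in early-flowering buds, 0.22% of the table. The difference between the types is thus a property of the choice, and it is described here without a test. No further filter was used, so every statement on the members covers all 116.

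Flower buds of Juglans regia, the Persian walnut, were taken from field-planted trees in Aksu, Xinjiang. The late-flowering group holds 3 mRNA libraries of a late fruiting walnut (labelled WS, with the stage given as late flower). The early-flowering group holds 3 mRNA libraries of a precocious walnut (labelled ZS, with the stage given as early flower). The labels give no cultivar, tree or sampling date, so walnut type and stage of the bud cannot be told apart, and the 3 libraries of a type may be technical repeats. All RNA was selected for poly(A) tails and depleted of ribosomal RNA, and the libraries were made with a stranded kit.

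Flowering in woody plants starts in a bud, where a meristem that had been making leaves turns to making floral organs, often long before the flower opens. Precocious walnuts make this change in very young trees, whereas ordinary walnuts pass through a long juvenile phase first. Walnut chromosomes fall into partner pairs left by an ancient duplication of the whole genome, and plant genes also multiply locally, which leaves related copies side by side on a chromosome. The gene IDs carry a chromosome number, a letter D or S, and a running number, so that chromosome and neighbours can be read from them. The files do not pair IDs with gene names, and 0 of 31425 IDs matched the 37996 genes of the RefSeq walnut table, so no function is given to any member and no tissue marker could be looked up.

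The 3 late-flowering libraries held 18284067, 23429891 and 19567426 gene counts, and the 3 early-flowering libraries 19053541, 16897407 and 16980496. At these depths 3 counts equal 0.128 to 0.178 CPM. The lowest count of any member was 35 in a late-flowering library and 2 in an early-flowering library. In the early-flowering libraries, 14 members had under 10 counts in at least 1 library and 0 had no counts, so low early-flowering values of these 14 carry a large counting error.

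The members took 0.567%, 1.04% and 1.33% of all gene counts in late-flowering libraries 1, 2 and 3, against 0.194%, 0.135% and 0.113% in early-flowering libraries 1, 2 and 3. Their summed level was 9765 ± 3829 CPM in late-flowering buds and 1475 ± 418 CPM in early-flowering buds (SD, n = 3 each). The late-flowering library numbered 1 was the lowest of its type and the early-flowering library numbered 1 the highest of its own; the 2 libraries share only a number. In bulk tissue, more RNA per cell and more cells of a type that holds the RNA cannot be told apart. A few genes made up much of the sum: the most abundant member held 12.8% of the members' late-flowering CPM, the first 2 held 21.5% and the first 10 held 49.4%. Without the most abundant member the sums were 4717, 9257 and 11585 CPM in late-flowering libraries, and 1510, 1151 and 999 CPM in early-flowering libraries, in the same order of libraries.

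**Figure D1:**
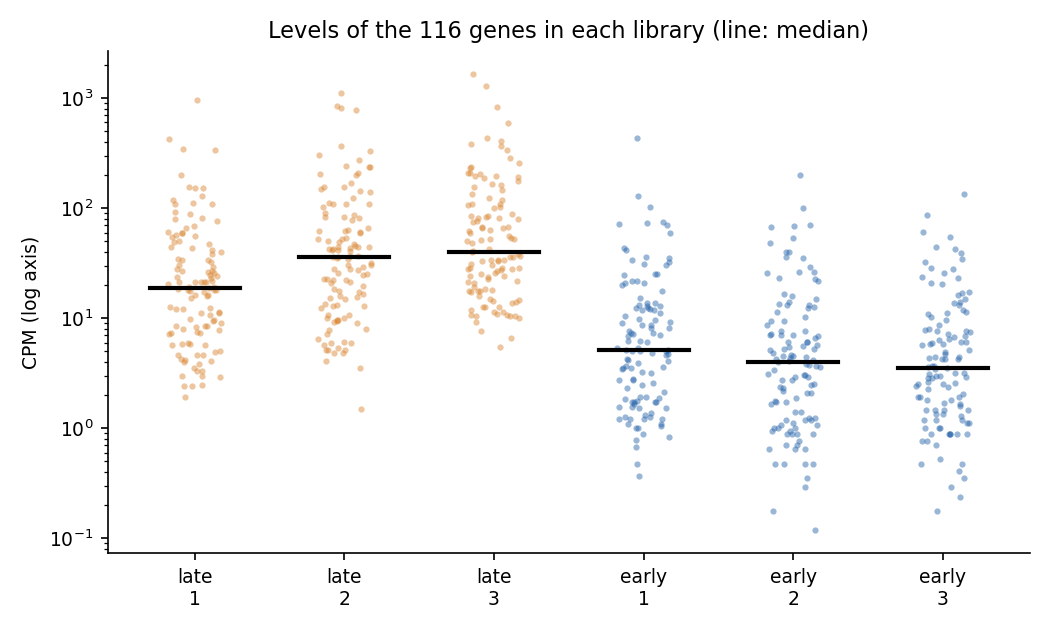
CPM of each of the 116 genes (points, log axis) in the 3 late-flowering and the 3 early-flowering libraries, with the median of each library as a line. The medians were 19.0, 35.7 and 40.1 CPM in late-flowering libraries 1, 2 and 3, and 5.12, 4.02 and 3.56 CPM in early-flowering libraries 1, 2 and 3.

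The plot of levels by library shows the same order for the typical member. The median log2 ratio between single libraries was 1.51 for late-flowering library 1 over early-flowering library 1, the closest pair of the 9. It was 3.24 for late-flowering library 3 over early-flowering library 3, the most distant pair. Over the means of the types, the log2 ratio had a median of 2.47 and a range of 2.002 to 5.69. It lay between 2 and 3 for 86 members, between 3 and 4 for 23 and at 4 or more for 7.

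Compared per length, members were moderately abundant genes. Their late-flowering mean had a median of 28.8 FPKM (the deposited unit, which scales counts by gene length and library total) and ran from 3.08 to 2666 FPKM. The other 16468 genes with a late-flowering mean of at least 5 CPM had a median of 18.8 FPKM. In early-flowering buds the median was 4.46 FPKM for the members and 19.5 FPKM for those other genes.

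The most abundant member per length was Jr1DG00201400, a gene of 467 bases at 2666 ± 803 FPKM in late-flowering buds and 545 ± 334 FPKM in early-flowering buds (SD, n = 3 each). It stood at 950, 1117 and 1667 CPM in late-flowering libraries 1 to 3 and at 431, 198 and 134 CPM in early-flowering libraries 1 to 3. Early-flowering library 1 lay well above the other two of its type, and without it the log2 ratio was 2.90 in place of 2.29. The next, Jr1DG00203900, lies 25 places further along the same chromosome and had 1288 ± 644 FPKM in late-flowering buds and 76.2 ± 67.2 FPKM in early-flowering buds (SD, n = 3 each). Its library values were 429, 843 and 1278 CPM in late-flowering buds, against 101, 28.9 and 20.7 CPM in early-flowering buds. Both genes thus had their lowest late-flowering value and their highest early-flowering value in library 1, and the log2 ratio of Jr1DG00203900, 4.07, was 3.65 without late-flowering replicate 3 and 5.07 without early-flowering replicate 1. Jr7DG00060300 followed at 705 ± 238 FPKM in late-flowering buds and 173 ± 54.2 FPKM in early-flowering buds, close to the limit of the rule with a log2 ratio of 2.02. It had 152, 306 and 285 CPM in late-flowering buds, against 74.7, 68.2 and 39.0 CPM in early-flowering buds, and late-flowering library 1 was 2.03 times early-flowering library 1. Jr4DG00117300, of 1194 bases, had 366 ± 117 FPKM in late-flowering buds and 42.1 ± 15.9 FPKM in early-flowering buds, with a log2 ratio of 3.11. Its late-flowering values of 344, 369 and 598 CPM all lay far above the 71.5, 34.9 and 44.5 CPM of early-flowering buds.

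The highest log2 ratio was that of Jr3DG00208500, a gene of 1164 bases in place 2085 of the 2437 genes on chromosome 3D. It had 21.2, 169 and 40.6 CPM in late-flowering buds, against 1.52, 0.710 and 0.766 CPM in early-flowering buds. Late-flowering library 2 held 73.3% of its late-flowering sum, and the log2 ratio of 5.69 became 4.39 when late-flowering replicate 2 was left out and 6.14 when late-flowering replicate 1 was. Its lowest late-flowering library was still 13.9 times its highest early-flowering library. Jr2DG00235700 (607 bases, chromosome 2D) had 56.7, 62.3 and 166 CPM in late-flowering buds, against 3.52, 1.01 and 1.83 CPM in early-flowering buds. Here library 3 was the high one, and the log2 ratio of 5.19 was 4.52 without late-flowering replicate 3. Jr3DG00208800 lies 3 places from Jr3DG00208500 and had 16.4, 45.7 and 74.2 CPM in late-flowering buds, against 2.73, 0.473 and 0.883 CPM in early-flowering buds. In contrast to its neighbour it was highest in library 3, and its log2 ratio of 4.62 was 4.08 without late-flowering replicate 3 and 5.28 without early-flowering replicate 1. Jr3SG00033400, on chromosome 3S, had 24.4, 65.4 and 108 CPM in late-flowering buds, against 4.99, 1.01 and 2.36 CPM in early-flowering buds. Its log2 ratio of 4.34 was 3.79 without late-flowering replicate 3 and 4.93 without early-flowering replicate 1.

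The distance between the types, taken as the lowest late-flowering over the highest early-flowering CPM, had a median of 2.86 and ran from 1.27 to 16.3. It was under 2 for 16 members. The widest gap was that of Jr2DG00249600, picked out after its values were seen, with 11.1, 22.2 and 27.8 CPM in late-flowering buds, against 0.682, 0.473 and 0.471 CPM in early-flowering buds. Genes at the limits of the rule differed little from those beyond them. Just inside the ratio limit were Jr4DG00145300 at 2.002 and Jr1SG00116000 at 2.01, and just outside were Jr8SG00022600 at 1.999 and Jr6SG00067400 at 1.994. Just inside the level limit were Jr4SG00137300, with a late-flowering mean of 5.13 CPM, and Jr4DG00218000, with 6.22 CPM, and just outside were Jr4DG00184700, with 4.89 CPM, and Jr5DG00004500, with 4.50 CPM. Only 3 genes met both limits and were left out because single libraries of the types overlapped. These were Jr1DG00239800, Jr2DG00208900 and Jr4DG00075300, with late-flowering means of 9.11, 5.32 and 6.93 CPM.

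The members varied far more between late-flowering libraries than other genes did. Their SD over the mean across the 3 libraries had a median of 0.485, with quartiles of 0.370 and 0.630 and a range of 0.200 to 1.103. The 16468 other genes at 5 CPM or more had a median of 0.104, with quartiles of 0.0623 and 0.169. Counting error alone would give the typical member about 0.0377. The highest late-flowering library of a member stood at 1.40 to 9.47 times its lowest, with a median of 2.74 times.

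This spread had a common direction. Late-flowering library 3 was the highest for 88 members (75.9%) and library 2 for 28 (24.1%), and library 1 was the highest for 0. Among the other genes at 5 CPM or more, libraries 1, 2 and 3 were the highest for 33.5%, 32.7% and 33.8%. Library 1 was the lowest for 102 members (87.9%), against 37.8% of the other genes. The order 1, 2, 3 from low to high was found in 76 members, the order 1, 3, 2 in 26, the order 2, 1, 3 in 12 and the order 3, 1, 2 in 2. The typical member stood 2.5 times as high in late-flowering library 3 as in library 1, and the typical other gene 1.01 times. The members share these libraries, so their common order is one fact about 3 libraries and not 116 separate ones.

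**Figure D2:**
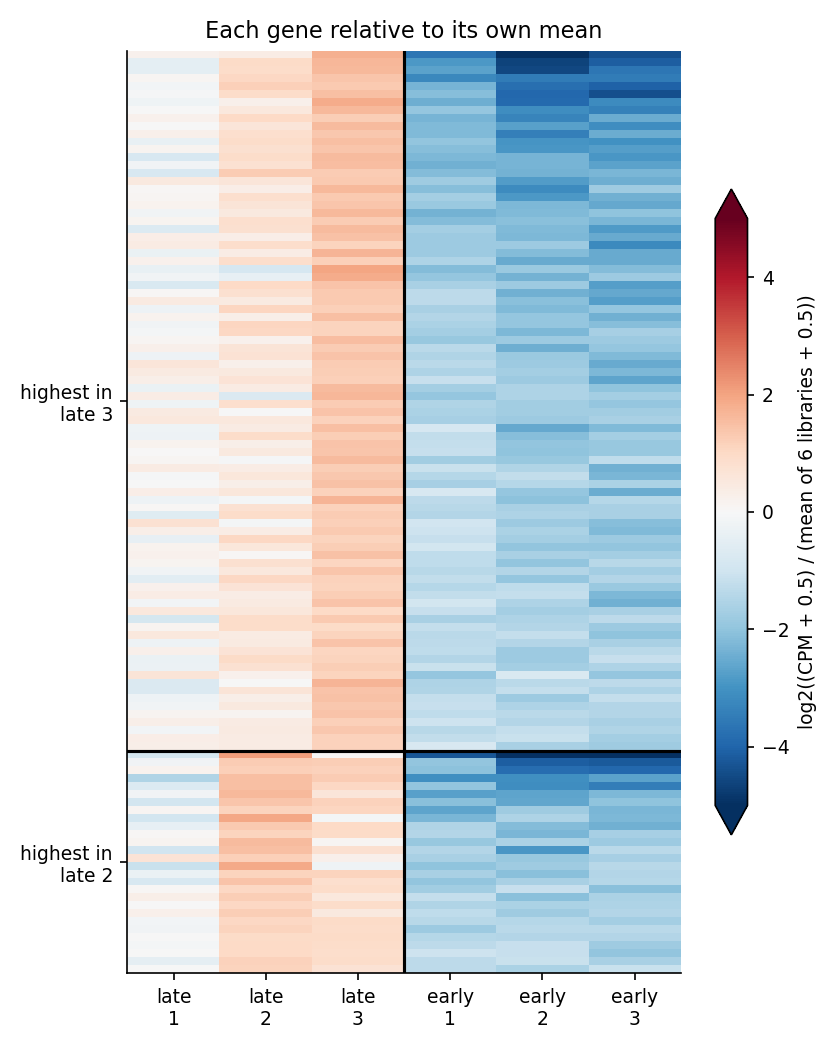
Each row is 1 of the 116 genes and each column 1 library; the colour is log2 of the CPM (plus 0.5) over the gene's mean of all 6 libraries (plus 0.5), with colours ending at 5 in either direction. The 88 genes highest in late-flowering library 3 are above the line and the 28 highest in library 2 below it, and the late-flowering library 1 column is the palest of the late-flowering columns for most genes.

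The same order was looked at in genes with smaller ratios. Of the 16584 genes with a late-flowering mean of at least 5 CPM, 3081 had their lowest late-flowering library above their highest early-flowering library. Among these 3081, 449 had a log2 ratio of 1 to under 2 and 883 a ratio of 0.5 to under 1. For the 449 genes, library 3 was the highest for 71.5% and library 1 the lowest for 77.1%. For the 883 genes, these shares were 60.5% and 71.8%. The median SD over the mean was 0.267 in the first band and 0.154 in the second, against 0.485 in the members. Ratio and spread use the same late-flowering values, and 1 high library raises both, so this order of the bands, and the members' larger spread, are partly set by the choice. Of the 69 genes higher in early-flowering buds, 51 had their highest late-flowering value in library 1. In both directions late-flowering library 1 was thus the one nearest to the early-flowering type for most of the genes chosen.

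The early-flowering libraries also differed in a common direction. Early-flowering library 1 was the highest of its type for 75 members (64.7%), library 2 for 23 and library 3 for 18. Among the other genes at 5 CPM or more, early-flowering library 1 was the highest for 40.0%. The members' SD over the mean in early-flowering buds had a median of 0.300, against 0.0921 in the other genes, where counting error alone would give 0.113 and 0.0433. For 68 members (58.6%) late-flowering library 1 was the lowest and early-flowering library 1 the highest of its type, as it was for 18.4% of the other genes. Late-flowering library 1 had the smallest total of its type and early-flowering library 1 the largest, at 18284067 and 19053541 counts. The number of genes with a count was 24101 in late-flowering library 1, 24301 and 24299 in late-flowering libraries 2 and 3, and 24329 to 24390 in early-flowering libraries. The 100 most abundant genes took 15.5%, 14.9% and 15.0% of the counts in late-flowering libraries, and 13.4%, 13.8% and 13.5% in early-flowering libraries. The part of depth or library make-up in the members' spread was not tested.

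**Figure D3:**
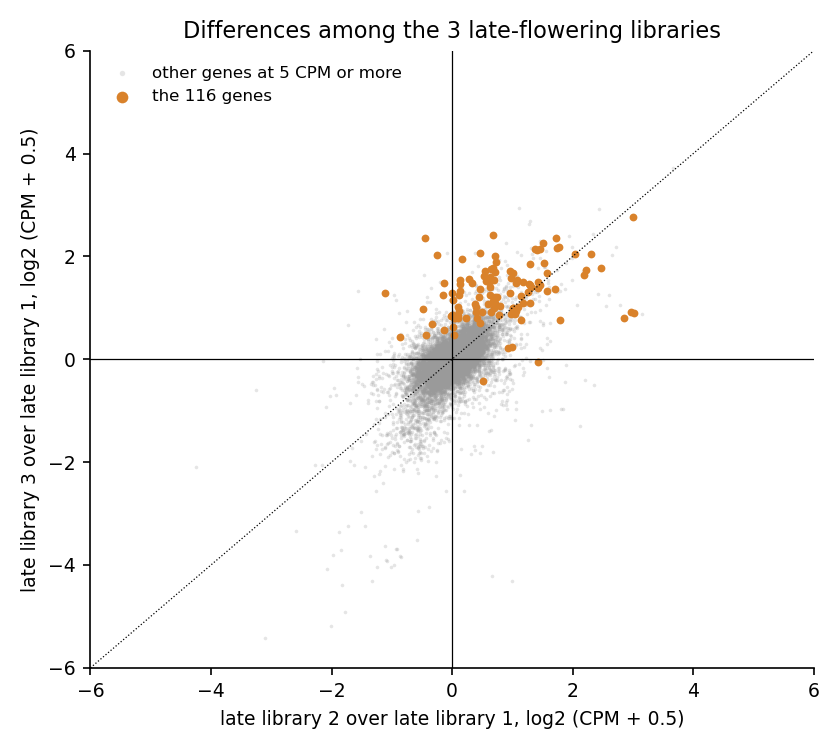
Differences among the late-flowering libraries, as log2 of library 2 over library 1 (x axis) and of library 3 over library 1 (y axis), with 0.5 CPM added, for the 116 genes (orange) and the 16468 other genes at 5 CPM or more (grey). The other genes centre on 0, most of the 116 lie to the upper right, and the 88 genes above the dotted diagonal were highest in library 3.

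Membership rested on single libraries for many genes. When the rule was applied without late-flowering replicate 1, 176 genes met it, including all 116 members. For the 102 members lowest in that library this was fixed in advance, since leaving it out could only raise their late-flowering values. Without late-flowering replicate 3 only 73 genes met it, and 45 members were lost. Leaving out any of the other libraries gave 115 to 155 genes and kept 103 to 115 of the members. For 52 members (44.8%), 1 library held over 50% of the late-flowering sum, against 2.5% of the other genes at 5 CPM or more. Of these 52, 43 were highest in library 3 and 9 in library 2.

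The 4 least even members show how single libraries made a mean. Jr2DG00225000 had 7.98, 5.72 and 42.8 CPM in late-flowering buds, against 1.94, 2.54 and 1.94 CPM in early-flowering buds, and its log2 ratio of 2.87 was 1.48 without late-flowering replicate 3. Jr7SG00045000 had 3.28, 30.2 and 6.59 CPM in late-flowering buds, against 1.52, 1.89 and 2.59 CPM in early-flowering buds, and its ratio of 2.47 was 1.12 without late-flowering replicate 2. It also had the smallest gap of all members, 1.27 times. Jr1DG00188100 had 109, 785 and 190 CPM in late-flowering buds, against 41.6, 71.0 and 42.6 CPM in early-flowering buds, and its ratio of 2.79 was 1.52 without late-flowering replicate 2. Together with Jr3DG00208500, 3 of these 4 were thus carried by late-flowering library 2, although library 3 was the usual high one.

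The 4 most even members had late-flowering means of 10.3 to 26.1 CPM. Other even members were far more abundant, among them Jr1DG00201400, whose SD over the mean was 0.301. Jr6DG00155500, the most even, had 20.6, 21 and 28.9 CPM in late-flowering buds, against 6.04, 3.97 and 4.24 CPM in early-flowering buds. Jr1DG00214200 had 7.55, 10.6 and 12.7 CPM in late-flowering buds, against 1.21, 1.24 and 0.177 CPM in early-flowering buds, the last of these being 3 counts. Its log2 ratio of 2.97 depended on the constant added, at 3.41 with 0.1 CPM and 2.59 with 1 CPM. Jr3SG00016700, of 414 bases, had 17.4, 17.6 and 27.1 CPM in late-flowering buds, against 3.52, 3.02 and 3.59 CPM in early-flowering buds. Jr3SG00098100 had 19.0, 25.6 and 33.6 CPM in late-flowering buds, against 6.19, 4.14 and 5.83 CPM in early-flowering buds. All 4 of these were still highest in library 3 and lowest in library 1 of the late-flowering type.

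**Figure D4:**
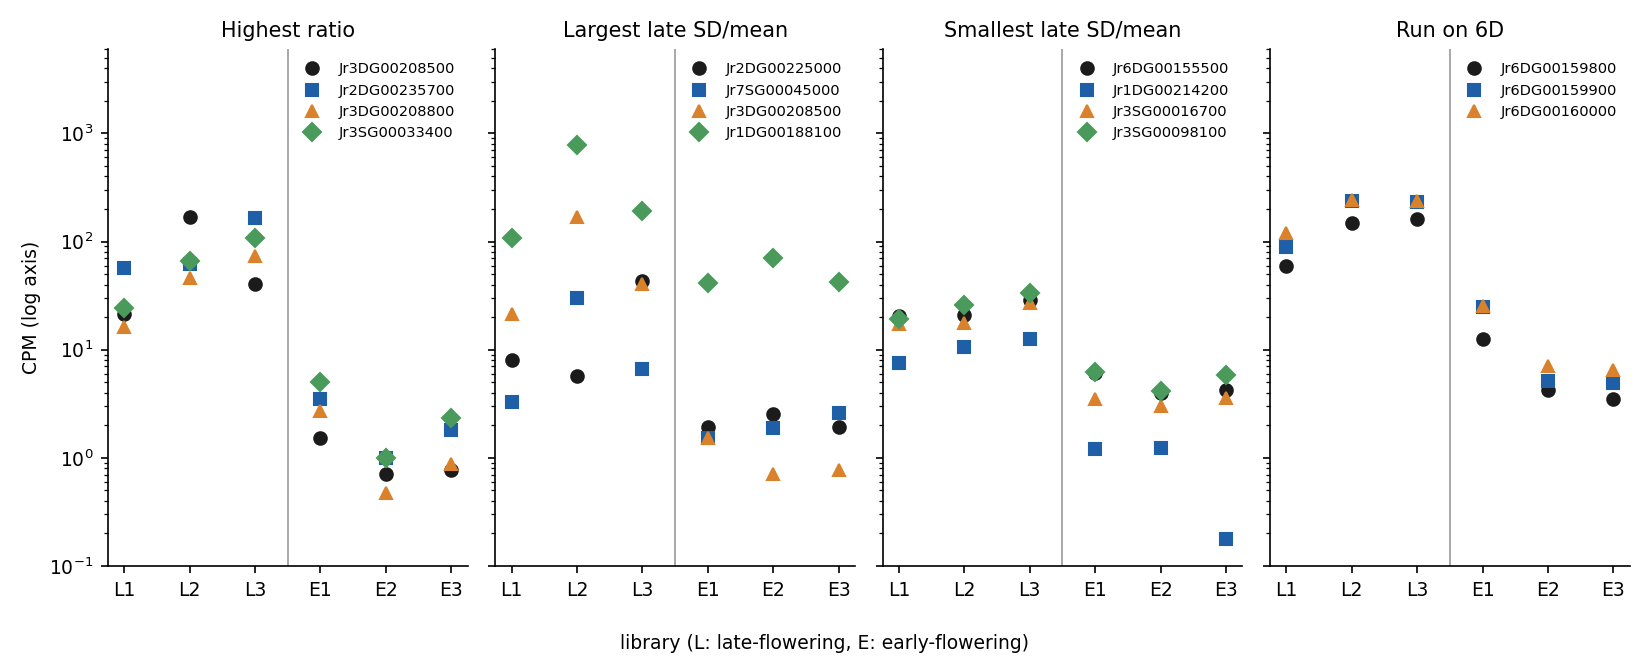
CPM (log axis) in late-flowering libraries 1 to 3 (L1 to L3) and early-flowering libraries 1 to 3 (E1 to E3) for the 4 members with the highest log2 ratio, the 4 least even and the 4 most even members across late-flowering libraries, and the run of 3 members on chromosome 6D. Every late-flowering point of a gene lies above its early-flowering points, by as little as 1.27 times in Jr7SG00045000 and as much as 16.1 times in Jr2DG00235700.

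The 28 members highest in late-flowering library 2 and the 88 highest in library 3 each had a median log2 ratio of 2.47. Of the 28, 64.3% lay on D chromosomes, as did 67.0% of the 88. Their median lengths were 1246 and 1046 bases. For 17 members, libraries 2 and 3 lay within 1.1 times of each other, so the choice between the 2 sets was close for these.

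Members were found on all the numbered chromosomes, and more of them lay on D than on S chromosomes. The IDs placed 77 members (66.4%, exact binomial 95% interval 57.0% to 74.9%) on D and 39 on S chromosomes. All D chromosomes together held 57.8% of the genes in the table and 59.5% of the other genes at 5 CPM or more. Members were 0.424% of the 18179 D genes and 0.298% of the 13107 S genes. Relative to genes at 5 CPM or more in late-flowering buds, the shares were 0.780% for D and 0.583% for S. The interval around the members' 66.4% includes both background shares.

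The count and share also varied between single chromosomes. Chromosome 1D had 18 members (0.585% of its genes) and 1S had 4 (0.212%). Chromosome 6D had 12 (0.575%) against 2 (0.141%) on 6S. Chromosomes 2D and 2S had 12 (0.451%) and 4 (0.2005%). The pair 3D and 3S had 12 each, and since 3S has fewer genes (1757, against 2437 on 3D) its share of 0.683% was the highest of all chromosomes. The lowest share was 0.110% on 7D, with 2 members among 1824 genes. The other chromosomes had 3 to 8 members each, and the 139 genes on no numbered chromosome included 0. The share was 0.349% on 4D and 0.348% on 4S, and 0.330% on 5D and 0.167% on 5S. As in pair 3, it was higher on S than on D in pair 7 (0.214% on 7S) and in pair 8 (0.4405% on 8S, 0.358% on 8D).

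Places along the chromosomes were read from the ID order. When the genes of each chromosome were divided by ID order into 3 equal stretches, 31, 34 and 51 members lay in the first, middle and last stretch. This is 26.7%, 29.3% and 44.0% of the members, against 33.8%, 30.8% and 35.3% of the other genes at 5 CPM or more. The exact binomial 95% interval of the last share, 34.8% to 53.5%, includes the 35.3% of the other genes at 5 CPM or more. It lies above the 33.35% of all genes in the table. On 2D, 10 of the 12 members lay from place 1331 to place 2618 of 2662. The members of 6S lay at 86.5% and 95.1% of its order. The IDs give an order and not a distance, so nothing is said here about the space between genes in bases.

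**Figure D5:**
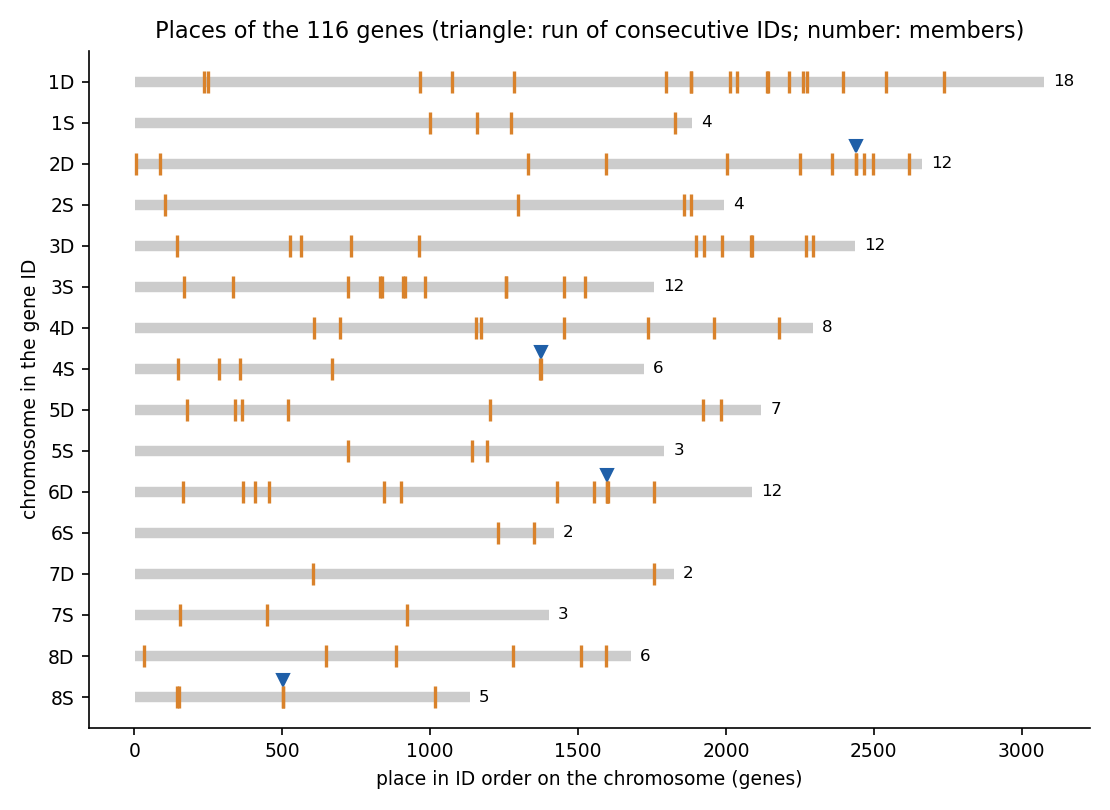
Place of each of the 116 genes (orange ticks) in the ID order of its chromosome (grey bars, as long as the number of genes in the table), with the number of members at the right and the 4 runs of consecutive IDs marked by triangles. The ticks are dense towards the end of 1D and 2D and sparse on 5S, 6S, 7D and 7S.

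Neighbouring members were rare, but more frequent than the members' share of all genes. Neighbouring IDs in the table always differed by 100, so no ID is skipped within a chromosome. There were 4 runs of members with no other gene between them, 3 of 2 genes and 1 of 3 genes, which together held 9 members (7.76%). Runs were not particular to the members, since the 69 genes higher in early-flowering buds had 2 runs, which held 4 of them. The next gene was also a member for 5 of the 116, or 4.31%, against members being 0.369% of all genes. The typical distance from one member to the next on its chromosome was 124 to 125 places (median 124.5), and 23 members lay within 10 places of another. No background share is given for this last count, so it is not read as high or low.

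The run of 3 on chromosome 6D held Jr6DG00159800, Jr6DG00159900 and Jr6DG00160000, in places 1598 to 1600 of 2088. Their lengths are 648, 624 and 624 bases. Jr6DG00159800 had 59.9, 148 and 163 CPM in late-flowering buds, against 12.5, 4.26 and 3.47 CPM in early-flowering buds. Jr6DG00159900 had 88.3, 239 and 232 CPM in late-flowering buds, against 24.8, 5.15 and 4.89 CPM in early-flowering buds. Jr6DG00160000 had 119, 241 and 238 CPM in late-flowering buds, against 25.1, 7.04 and 6.54 CPM in early-flowering buds. The 3 profiles were nearly parallel, with late-flowering libraries 2 and 3 close together, late-flowering library 1 lower, and early-flowering library 1 above the other two of its type. Per length, late-flowering means were 191 ± 86.1, 299 ± 136 and 319 ± 111 FPKM, and early-flowering means were 10.4 ± 7.71, 18.6 ± 18.3 and 20.7 ± 16.9 FPKM (SD, n = 3 each). The log2 ratios of 4.10, 3.95 and 3.90 were 4.83, 5.08 and 4.78 without early-flowering replicate 1. Genes of such like length and place may be near-identical copies, in which case the counting could have shared reads between them, and how much of each count belongs to which gene is uncertain.

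The runs of 2 were lower in level and differed in how alike their genes were. On 2D, Jr2DG00243900 had 5.09, 3.50 and 10.5 CPM in late-flowering buds, against 0.840, 0.710 and 0.707 CPM in early-flowering buds. Its neighbour Jr2DG00244000 had 56.4, 110 and 187 CPM in late-flowering buds, against 11.9, 12.4 and 9.72 CPM in early-flowering buds. Both were highest in late-flowering library 3 and nearly level over early-flowering libraries, but only the first was lowest in late-flowering library 2. On 4S, Jr4SG00137300 had 3.83, 1.49 and 10.1 CPM in late-flowering buds, against 0.367, 0.651 and 0.530 CPM in early-flowering buds. Jr4SG00137400 beside it had 7.16, 5.93 and 30.7 CPM in late-flowering buds, against 1.73, 1.18 and 1.94 CPM in early-flowering buds. On 8S, Jr8SG00050300 had 18.9, 10.1 and 25.7 CPM in late-flowering buds, against 5.41, 2.72 and 2.06 CPM in early-flowering buds. Jr8SG00050400 had 5.74, 5.12 and 14.4 CPM in late-flowering buds, against 1.73, 1.24 and 1.18 CPM in early-flowering buds. In 5 of these 6 genes late-flowering library 2 was the lowest of its type, which was so for 12 of all 116 members. The gene that follows on 8S, Jr8SG00050500, is not a member, with 20.1, 28.4 and 31.1 CPM in late-flowering buds, against 17.4, 8.46 and 5.48 CPM in early-flowering buds (log2 ratio 1.31).

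Members near each other did not always share their highest late-flowering library. Of the 12 pairs of neighbouring members within 10 places, 7 had the same highest late-flowering library and 5 did not. No share for other pairs of members is given, so this is not read as high or low. Among the 5 were Jr6DG00159800 and Jr6DG00159900, whose profiles were nearly parallel. Their late-flowering libraries 2 and 3 were close, at 148 and 163 CPM in the first gene and 239 and 232 CPM in the second. Another of the 5 was the pair with the highest log2 ratio, Jr3DG00208500 and Jr3DG00208800. The genes between them, Jr3DG00208600 and Jr3DG00208700, had log2 ratios of 0.90 and 0.99. Jr3DG00208700 stood at 385, 536 and 489 CPM in late-flowering buds, against 281, 250 and 180 CPM in early-flowering buds, so all 4 genes of this stretch were higher in the late-flowering mean. On 1D, Jr1DG00188100 and Jr1DG00188300 are separated by 1 gene with a log2 ratio of 0.13 and almost no counts. Jr1DG00188300, of 246 bases, had 5.85, 9.69 and 21.3 CPM in late-flowering buds, against 0.892, 1.07 and 1.30 CPM in early-flowering buds, and it was highest in library 3 where Jr1DG00188100 was highest in library 2.

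The median log2 ratio of genes around the members was near that of the table as a whole, but ratios of at least 1 were more frequent around them. The 707 non-members within 5 places of a member, with a mean of at least 1 CPM over the 6 libraries, had a median log2 ratio of −0.07, against −0.09 for all 20649 such non-members. Both signs depend on the scaling, since TMM factors moved the median gene by 0.103 on the log2 scale. A ratio of at least 1 was found in 40 of the 707 (5.66%) and in 2.90% of all such non-members. For the 141 genes in the place next to a member, the median was −0.04, and 16 (11.3%) had a ratio of at least 1. When the ratio limit was set at 1, 565 genes met the rule, and 82 of these lay in 38 runs of at most 3 genes. Of these runs 14 held a member, with 19 members in all (16.4% of 116). Since this uses the contrast that chose the members, it describes their surroundings and is not support for them.

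Members were shorter than other genes of that level. Their length had a median of 1114 bases and ran from 243 bases (Jr1DG00179900) to 3698 bases (Jr4DG00145300). The other genes at 5 CPM or more had a median of 1563 bases, and all genes together 1186 bases. Among genes that met the limits on level and overlap, the median was 1460 bases at a ratio of 0.5 to under 1, 1378 bases at 1 to under 2 and 1114 bases in the members. Jr1DG00179900 had 9.73, 24.5 and 36.3 CPM in late-flowering buds, against 2.83, 1.18 and 1.12 CPM in early-flowering buds, which per length is 96.8 ± 54.7 FPKM in late-flowering buds and 7.05 ± 4.001 FPKM in early-flowering buds (SD, n = 3 each). Jr4DG00145300 had 50.1, 111 and 85.7 CPM in late-flowering buds, against 20.2, 16.7 and 23.6 CPM in early-flowering buds, or 22.3 ± 8.29 FPKM and 5.45 ± 0.937 FPKM. A level limit in CPM favours long genes, since at equal FPKM a longer gene gathers more counts. Members and the other genes at 5 CPM or more passed this same limit, and the cause of the members' shorter length was not tested.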

How the data were processed

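Per the file headers, the deposited mRNA table gives a read count, an FPKM value and a length for each gene and library; the deposited FPKM values equal the count over length and library total (largest relative difference 3.82e-08). The submitters' processing notes name FastQC, HISAT2, Cufflinks and DESeq2 without their roles; the sources used here name no genome build, annotation or strand setting of the counting. A deposited table of miRNA counts was not used here.

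Counts were scaled to CPM by column sums, and the rule was applied to all 31425 genes (numpy 2.4.6, pandas 2.3.3; matplotlib 3.10.9). Chromosome and order were read from the IDs. TMM factors (edgeR 4.0.16) and size factors (DESeq2 1.42.0, R 4.3.3) were used as other scalings. The code for the rule and for the search for runs was tried on simulated counts with counting error and no other spread between libraries. The planted ratios lay away from the limit of the rule. This checked the code, and not how the rule performs on libraries as variable as these. Intervals are exact binomial (Clopper-Pearson) at 95%. They treat the 116 members as independent draws of genes, although members share the same libraries and some lie side by side, so they may be too narrow. Limits from 3 counts cover counting error only.

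The members, lists and descriptions were chosen with earlier results of these data known. Named genes are the 4 highest by late-flowering FPKM and by ratio, the 4 least and 4 most even, those of the 2 longest runs, the shortest and longest, and those at the limits; others were named after their values were seen. The shares of members by highest or lowest library were added after the data were seen. Genes sharing sequence, or overlapping on either strand, have uncertain counts.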

Additional observations from a re-analysis of the deposited data

How the results depend on the processing

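No paired analysis was possible because no test was run and the labels tie no library of one type to one of the other beyond a shared replicate number. The number of members was 565 with a ratio limit of 1 and 30 with a limit of 3, against 116. The left-out libraries gave 73 (without late-flowering replicate 3) to 176 genes (without late-flowering replicate 1), and all other settings gave 97 to 139. TMM and DESeq2 size factors each gave 138 genes, all 116 members among them; they moved the median log2 ratio of genes at 5 CPM or more by 0.103 and 0.101, and that of the members to 2.57 and 2.56. With FPKM in place of CPM, 107 members were kept and 9 were lost. The share of members in runs was 14.5% with a ratio limit of 1 and 3.09% with a level limit of 10 CPM, and 12.9% when 1 other gene was allowed inside a run or when genes under 1 CPM were left out of the order. The share carried by 1 late-flowering library was 18.4% with a ratio limit of 1. Late-flowering library 1 was the lowest for 79.3% with a ratio limit of 1 and for 100% with a limit of 3, where early-flowering library 1 was the highest of its type for 73.3%; the cause was not tested. The share on D chromosomes stayed within its interval in all 16 settings. For the 22 genes named by rule, 6 of 242 log2 ratios moved by more than the SD between late-flowering libraries; that SD includes the library left out, and the rule fixes the sign when 1 is left out, so neither shows stability. Without late-flowering replicate 2 the ratio of Jr1DG00188100 was 1.52, against 2.79, and that of Jr7SG00045000 was 1.12, against 2.47. Gene names, sequence and distances in bases were not analysed here.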
